A study of Mus musculus with 4 samples.

Results

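Collagens are the triple-helical proteins that give the lung its tensile strength and its basement membranes, and their genes were followed here in a mouse model of antigen-induced asthma. A gene was taken as a collagen when the array's own annotation named its probe Col, a number, a and a number. This gave 44 genes, measured by 66 probes on 75 spots, out of 31044 genes, 39429 probes and 43020 spots in all. By the kind of protein they encode, 11 were fibrillar collagens, 9 were basement membrane collagens and 24 were other types. The other types held 6 type VI genes, 9 collagens with interrupted helices that sit on fibrils (FACIT), 3 short-chain collagens (the network-forming types VIII and X), 4 transmembrane collagens and 2 that belong to none of these.

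The study asked how deletion of group III phospholipase A2 (Pla2g3), a secreted lipid-cleaving enzyme, bears on gene expression in the lung after antigen challenge. Whole-genome expression was read on 4 one-colour arrays, 1 for each of the groups Pla2g3+/+ control, Pla2g3-/- control, Pla2g3+/+ antigen challenged and Pla2g3-/- antigen challenged. The RNA on each array was pooled from 4 samples, and 200 ng of it was labelled with Cy3. The labels describe ovalbumin, 10 µg with 1.3 mg alum in a volume of 0.2 ml, injected into the peritoneum on days 0 and 14. They then describe an aerosol of 1% ovalbumin for 30 min a day on days 26, 27 and 28, and lungs taken 48 h after the last one. The same text is attached to the control arrays, so what the controls received, the strain, the age and the deleted part of Pla2g3 are not given in the sources used here. With 1 array per group there was no replicate error. The spread in every limma test below starts from the disagreement between the pairs of arrays that should show the same difference. This leaves 1 residual degree of freedom. The spread is then drawn towards a value estimated from all genes. That value weighed more in the main fit, with 1.74 degrees of freedom in the scanner output and 1.53 in the authors' value table.

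All collagen chains are built on repeats of glycine and 2 other residues, which lets 3 chains wind into a helix. Fibrillar collagens assemble into the cables of the airway wall and vessel walls and are the main product of fibroblasts in scarring. Type IV collagens form the sheet of every basement membrane, with one pair of chains found widely and other chains confined to specialised membranes such as that of the alveolus. Type VI forms beaded filaments next to cells, and the fibril-associated types decorate fibrils.

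The repeat can be read in the array's own probes, which is why the following pair is shown. Capitals mark glycine codons (GGN) that recur every 9 bases.
Col15a1 probe: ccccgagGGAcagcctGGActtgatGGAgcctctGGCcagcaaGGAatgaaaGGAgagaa
Col25a1 probe: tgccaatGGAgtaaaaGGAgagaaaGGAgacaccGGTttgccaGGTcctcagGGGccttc
The probes start at transcript position 2280 for Col15a1 and 2072 for Col25a1, and all 6 of 6 repeat positions of each hold a glycine codon. Of the 66 collagen probes, 2 (3.03%) had a glycine codon at 80% or more of such positions in one register, against 14 of all 39429 probes (0.0355%).

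The values came from 2 sources, the scanner output of the 4 arrays and the authors' value table for the same 4 samples. A level below is the log2 of the signal relative to the 75th percentile of that array, so 0 is a bright gene and -10 is close to the signal of empty spots. The negative control spots lay at a mean level of -9.75 in the scanner output and -10.59 in the table. How the table was made and its scale are not given in the sources used here, but its 75th percentile was 1.00 in each column. A probe counted as above background in the scanner output where the software called it well above background, and in the table where it exceeded 5 times the median of 153 negative control spots. By these rules 79.2% to 81.9% of spots were above background in the scanner output and 79.2% to 81.5% in the table, and no spot was saturated. Differences from a probe at background are given as "at least" a fold, measured against the lowest signal counted as detected on that array or the probe's own signal, whichever was higher. The 2 sources did not hold the same levels under the same probe names, so each comparison is given for each source on its own. Values are listed in the order Pla2g3+/+ control, Pla2g3-/- control, Pla2g3+/+ challenged, Pla2g3-/- challenged throughout.

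The gene named in the genotype labels went against them. The Pla2g3 probe nearer the transcript's end read -3.05, 0.14, -2.83 and 1.07 in the scanner output and -4.66, -0.20, -4.61 and 0.06 in the table. The other Pla2g3 probe read -5.49, -3.37, -7.11 and -2.56 in the scanner output and -8.38, -4.36, -8.07 and -4.18 in the table. The signal was therefore higher on both arrays labelled Pla2g3-/- in both sources. Because the deleted part is not given, it is not known whether these probes lie within it. Why the signal was higher on those arrays was not tested, and whether the labels are right could not be settled here. The arrays are called WT-labelled and KO-labelled below, and every genotype direction is that of the label.

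Of the 44 collagen genes, 34 were above background on all 4 arrays of the scanner output, 7 on some and 3 (Col11a1, Col24a1, Col28a1) on none. By the table, 37 genes were above background on all 4 arrays, 4 on some and 3 (Col9a3, Col10a1, Col11a1) on none. Of those measured throughout, 31 of 34 (91.2%) varied by less than 2-fold over the 4 arrays in the scanner output, where 88.3% of all genes did. By the table, 34 of 37 (91.9%) varied by less than 2-fold, against 92.8% of all genes. In pieces of whole tissue, fewer cells of a type and less RNA per cell cannot be told apart. No collagen gene passed limma at an adjusted p of 0.05, for challenge or for genotype, in either source, and neither did any other gene (0% of 26309 in the scanner output and 0% of 26008 in the table). At an unadjusted p under 0.05, challenge picked 5 of 41 collagens in the scanner output (9.57% of all genes) and 6 of 41 in the table (8.79%). Genotype picked 6 of 41 in the scanner output (10.7%) and 8 of 41 in the table (13.8%). These shares, with 1 residual degree of freedom behind them, give no collagen a call. When the spread was allowed to follow signal level (limma's variance trend), the table gave 2 genotype calls among collagens, Col6a4 (with WT-labelled values at background) and Col4a4, where 4.03% of all genes were called. The same setting gave no challenge call among collagens (0.454% of all genes).

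Pairs of single arrays were compared by counting differences of 2-fold or more. Challenge gave, in the scanner output, 0 of 37 collagens in the WT-labelled pair (4.41% of all genes) and 6 of 40 in the KO-labelled pair (8.73%). Genotype gave 3 of 38 among controls (5.97%) and 3 of 39 among challenged arrays (8.14%). In the table, challenge gave 1 of 39 in the WT-labelled pair (3.45%) and 4 of 40 in the KO-labelled pair (4.62%). Genotype gave 2 of 40 among controls (5.14%) and 5 of 41 among challenged arrays (5.8%). Of the 6 in the scanner output's KO-labelled challenge pair, Col13a1, Col27a1, Col9a3 and Col22a1 were higher and Col2a1 and Col10a1 lower. In the table's KO-labelled pair, Col6a5, Col24a1, Col22a1 and Col2a1 were higher. Some of these rest on values at background: with arrays at background set to the detection floor, the 6 became 4 and the table's 4 became 3.

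**Figure D1:**
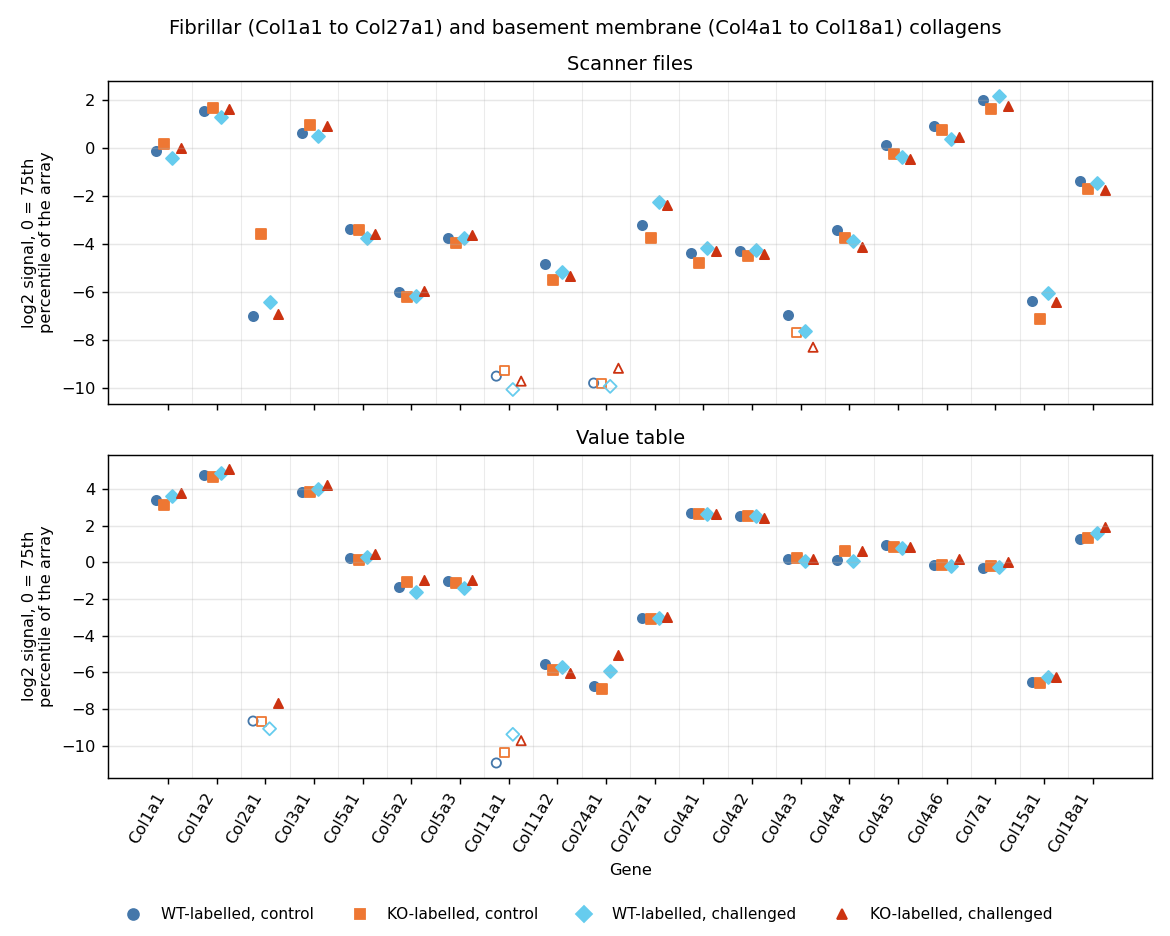
Log2 level relative to the array's 75th percentile (vertical axis) of each fibrillar and basement membrane collagen gene (horizontal axis), with 1 symbol for each of the 4 arrays, scanner output in the upper panel and value table in the lower; open symbols are not above background. Col4a1 sits between -4.79 and -4.16 in the upper panel and between 2.63 and 2.67 in the lower, and Col2a1 on the KO-labelled control array stands above its other symbols in the upper panel.

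Among the fibrillar genes, the pair that makes type I collagen, the main fibril of skin, bone and airway wall, was above background on every array. Col1a1, its alpha-1 chain, read -0.12, 0.15, -0.40 and -0.01 in the scanner output, so each challenged array lay below its control. Averaged over genotypes, challenged minus control was -0.22 (SE 0.12, limma adjusted p = 0.556). In the table Col1a1 read 3.40, 3.16, 3.60 and 3.77, with both challenged arrays above both controls and a difference of 0.41 (SE 0.15, limma adjusted p = 0.58). Its direction thus differed between the sources, and neither difference passed the test.

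Col1a2, the partner chain, read 1.53, 1.67, 1.29 and 1.65 in the scanner output (challenge -0.13, limma adjusted p = 0.687) and 4.75, 4.64, 4.90 and 5.09 in the table (0.30, SE 0.12, limma adjusted p = 0.585). Col3a1, the type III chain of elastic tissues, read 0.64, 0.98, 0.52 and 0.92 in the scanner output (challenge -0.09, limma adjusted p = 0.742). In the table it read 3.87, 3.86, 4.02 and 4.23 (0.26, SE 0.10, limma adjusted p = 0.584). For all 3 chains, the table's KO-labelled pair gave the larger difference, 0.61, 0.45 and 0.37 for Col1a1, Col1a2 and Col3a1, against 0.21, 0.15 and 0.15 in the WT-labelled pair. All 3 were higher in the scanner output on the KO-labelled arrays in both treatments, by 0.33, 0.25 and 0.37 on average (limma adjusted p = 0.504, 0.616 and 0.467). The table gave Col1a1 a genotype difference of -0.03.

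These 2 promoters are shown because Col1a2 and Col3a1 had the same sign of challenge difference as each other in both sources. The trait was not particular to this pair, since Col1a1, Col5a1 and Col14a1 had the same signs. Each promoter is the 250 bases before the transcription start in RefSeq's GRCm38.p6 annotation. They lie at chr6:4505368-4505617 (plus strand) for Col1a2 and chr1:45311288-45311537 (plus strand) for Col3a1. Capitals mark the motif CCAAT, the motif GGGCGG or the motif TATAAA.
Col1a2 promoter: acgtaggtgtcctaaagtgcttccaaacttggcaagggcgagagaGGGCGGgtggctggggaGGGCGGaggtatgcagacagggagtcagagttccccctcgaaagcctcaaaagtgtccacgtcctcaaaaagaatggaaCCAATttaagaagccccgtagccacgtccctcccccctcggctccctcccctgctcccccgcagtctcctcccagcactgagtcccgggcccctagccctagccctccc
Col3a1 promoter: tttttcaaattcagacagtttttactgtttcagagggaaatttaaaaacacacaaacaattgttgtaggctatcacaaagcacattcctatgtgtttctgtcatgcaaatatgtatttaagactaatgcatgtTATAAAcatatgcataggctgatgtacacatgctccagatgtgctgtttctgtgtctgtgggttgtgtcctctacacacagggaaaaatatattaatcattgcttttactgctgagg
The Col1a2 window holds 1 CCAAT, 109 bases before the start, and 2 copies of GGGCGG. The Col3a1 window holds 1 TATAAA, 117 bases before the start, and neither of the others. Promoters were found for 35 of the 44 genes, 38 windows in all. CCAAT or its reverse complement ATTGG stood in 13 of the 38 windows (33.8% of 32851 promoters of the same length), and TATAAA or TTTATA in 5 (12.4%). GGGCGG or CCGCCC stood in 22 (32.7%). A match is a string of letters and no measure of binding.

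The minor fibrillar genes differed more between arrays. Col27a1, a fibrillar chain of cartilage and developing tissues, read -3.19, -3.72, -2.25 and -2.38 in the scanner output, with both challenged arrays above both controls. The difference was 0.95 for the WT-labelled arrays and 1.34 for the KO-labelled ones, 1.14 on average (SE 0.16, limma adjusted p = 0.513). In the table the same gene read -3.03, -3.10, -3.03 and -2.97, an average difference of 0.07. Col24a1, a fibrillar chain best known from bone, was at background on all 4 scanner arrays but read -6.73, -6.92, -5.95 and -5.07 in the table. Both challenged values lay above both controls, by 0.78 and 1.85 and by 1.32 on average (SE 0.34, limma adjusted p = 0.566).

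Col5a2, a type V chain that sets fibril diameter, read -1.35, -1.07, -1.62 and -0.96 in the table, higher on the KO-labelled array in both treatments (0.47, limma adjusted p = 0.369). The scanner output gave -6.00, -6.20, -6.17 and -5.93, with no such order. Col5a3, another type V chain, differed by -0.37 with challenge in the table's WT-labelled pair and by 0.18 in its KO-labelled pair. Col11a2, a cartilage fibril chain, was lower on the KO-labelled arrays, with averaged differences of -0.41 in the scanner output and -0.32 in the table (limma adjusted p = 0.581 and 0.316). Across the fibrillar genes tested, the averaged challenge difference was above 0 for 3 of 9 in the scanner output (median -0.09, all genes -0.05) and for 7 of 10 in the table (median 0.23, all genes 0.01). In the table's KO-labelled pair 9 of 10 were above 0 (median 0.36, all genes 0.02). In the scanner output's KO-labelled pair 4 of 9 were (median -0.02, all genes -0.06). The share of all genes above 0 was not counted for these comparisons.

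One scanner array stood apart for some collagens of cartilage and not for others. Col2a1, the main cartilage fibril chain, read -6.97, -3.56, -6.40 and -6.91 in the scanner output. The KO-labelled control value lay 3.41 above the WT-labelled control, a 10.6-fold difference, and the other 3 arrays lay close together. Challenged minus control was accordingly -3.35 in the KO-labelled pair, and the averaged challenge and genotype differences of -1.39 and 1.45 did not pass (limma adjusted p = 0.658 and 0.755). Col10a1, the chain of growth-plate cartilage, read -9.99, -5.07, -10.10 and -8.42, above background on the KO-labelled control array only. It was at least 6.11-fold higher there than on the WT-labelled control and at least 5.26-fold lower on the KO-labelled challenged array.

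A second probe for Col9a1, a cartilage fibril-associated chain, read -8.25, -6.54, -8.41 and -8.98 and was also above background on the KO-labelled control array alone. Col9a2, a type IX chain, was above background on all 4 arrays and also highest on that array (-4.43, -3.94, -4.16 and -4.11). Other cartilage chains did not share this. That array was the lowest of the 4 for Col9a1's brighter probe (-5.96), for Col11a2 (-5.50) and for Col27a1 (-3.72), and Col9a3 was at background on it. Of 14 cartilage marker genes, 10, 11, 9 and 11 were above background on the 4 scanner arrays. Their summed signals were 8.85, 8.31, 7.40 and 7.40 in units of the array's 75th percentile, so the KO-labelled control array did not have the highest sum. Their median log2 levels were -5.68, -5.00, -6.64 and -5.91, so that array did have the highest median. Epyc, a cartilage proteoglycan, was above background on that array only. Matn1, a cartilage matrix gene, was at background on it and above background on the KO-labelled challenged array only. Matn3 and Cnmd, also cartilage matrix genes, were at background on all 4. The part of these markers in the Col2a1 and Col10a1 values was not tested. The table did not show the pattern. There Col10a1 was at background throughout and Col2a1 was above background on the KO-labelled challenged array alone (-7.66), at least 1.57-fold over the KO-labelled control. With normexp background correction and quantile normalization of the scanner output, the KO-labelled control exceeded the WT-labelled control by 1.46 for Col2a1 and by 1.08 for Col10a1. The table's cartilage markers numbered 8, 8, 8 and 9 above background, with sums of 3.31, 4.40, 3.88 and 4.46.

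Among the basement membrane genes, the widely expressed type IV pair lay flat in the table. Col4a1 read 2.67, 2.63, 2.63 and 2.66 there (challenge -0.01) and Col4a2 read 2.51, 2.51, 2.54 and 2.45 (challenge -0.02). By the scanner output, Col4a1 read -4.36, -4.79, -4.16 and -4.29, a challenge difference of 0.35 (SE 0.14, limma adjusted p = 0.521), and Col4a2 read -4.27, -4.49, -4.23 and -4.40 (0.07). Col4a1 has 10 spots on each array. The SD over these spots was 0.0868 to 0.144 in the scanner output and 0.0403 to 0.0546 in the table, which measures the repeat of a spot and not of an animal. The 2 genes share a head-to-head promoter, and their 300-base RefSeq windows lie on opposite strands and overlap by 78 bases.

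Col4a3 and Col4a4 encode chains of the alveolar and glomerular basement membranes and also lie head to head. In the table Col4a3 read 0.20, 0.26, 0.09 and 0.17, and Col4a4 read 0.13, 0.61, 0.09 and 0.63. Col4a4 was higher on the KO-labelled array in both treatments, by 0.51 on average (SE 0.07, limma adjusted p = 0.246, and 0.0271 with the variance trend). That difference exceeded the one of its neighbour Col4a3 by 0.44. The scanner output showed the opposite sign for Col4a4, which read -3.41, -3.74, -3.85 and -4.12 (genotype -0.30, challenge -0.41 with limma adjusted p = 0.513). Col4a3 was at background there on both KO-labelled arrays, at -6.96, -7.67, -7.60 and -8.28, and was at least 1.63-fold lower on the KO-labelled control than on the WT-labelled control.

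The third pair, Col4a5 and Col4a6, encodes chains of epithelial and smooth muscle membranes. Col4a5 read 0.11, -0.23, -0.39 and -0.43 in the scanner output and Col4a6 read 0.92, 0.74, 0.38 and 0.47, with both challenged values below both controls for each gene. The averaged differences were -0.35 and -0.41 (limma adjusted p = 0.523 and 0.513). A dimmer Col4a6 probe, also above background throughout, read -1.40, -1.37, -1.37 and -1.53 in the scanner output and did not show that order. In the table Col4a5 read 0.95, 0.84, 0.77 and 0.86, and Col4a6 read -0.16, -0.16, -0.19 and 0.17, without that order for either gene.

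Col18a1, whose C-terminal fragment is endostatin, read 1.27, 1.33, 1.59 and 1.92 in the table, with both challenged values higher (0.46, SE 0.11, limma adjusted p = 0.566). Its scanner levels were -1.37, -1.72, -1.44 and -1.74, ordered by genotype (-0.32) and not by challenge. Col7a1, the anchoring fibril of squamous epithelium, read 2.01, 1.64, 2.18 and 1.77 in the scanner output (genotype -0.39, limma adjusted p = 0.461) and -0.28, -0.18, -0.24 and 0.04 in the table. Col15a1, which joins basement membranes to the tissue beneath, was measured by a different probe in each source. It read -6.35, -7.09, -6.03 and -6.38 in the scanner output (challenge 0.52, limma adjusted p = 0.513) and -6.55, -6.60, -6.28 and -6.27 in the table (0.30, limma adjusted p = 0.566). The table's probe was above background on all 4 scanner arrays too and read -6.54, -7.06, -6.83 and -6.77 there, with challenge differences of opposite sign in the 2 pairs.

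Over the 9 basement membrane genes, the averaged genotype difference in the scanner output was above 0 for 0 of 9, with a median of -0.30 (all genes -0.04). It was above 0 for 0 of 9 among controls (median -0.35, all genes -0.03) and for 1 of 9 among challenged arrays (median -0.26, all genes -0.06). The table did not share this direction. There 5 of 9 were above 0 on average (median 0.07, all genes -0.0008), 5 of 9 among controls and 8 of 9 among challenged arrays (median 0.09, all genes 0.01). The share of all genes above 0 was not counted for these comparisons.

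Type VI held the collagens with the largest differences in the table. Col6a4 encodes a type VI alpha chain, and its brighter table probe read -10.87, -3.71, -10.73 and -3.58. Both WT-labelled values were at background and both KO-labelled values above it, so the gene was at least 26.3-fold higher on the KO-labelled array in each treatment. The averaged difference had a limma adjusted p of 0.108, and of 0.000497 with the variance trend, but both p-values rest on WT-labelled values at background. Col6a4 has 2 probes, which did not give the same picture. The second probe read -9.37, -8.04, -10.13 and -7.92 in the table, above background on both KO-labelled arrays only. The first probe was at background in the scanner output on all 4 arrays (-9.85, -8.94, -9.98 and -8.91). In that source the second probe was the brighter one and read -7.62, -7.26, -7.26 and -7.15, a genotype difference of 0.23 (limma adjusted p = 0.654). Within each treatment the KO-labelled array was thus the higher one for both probes in both sources, but by amounts that ranged widely. Of these 4 sets of values, 3 lay partly or wholly at background. The set above it throughout was the scanner output's second probe, with differences of 0.35 among controls and 0.11 among challenged arrays. Both were below the scanner software's spot error for these pairs (0.41 and 0.38). Averaging both probes brought the table's differences to 4.25 among controls and 4.68 among challenged arrays.

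Col6a4 lies on chromosome 9. Among the genes other than collagens that have a probe within 1000000 bases of the type VI genes of that chromosome and could be compared, 0 of 37 in the scanner output and 0 of 35 in the table differed 2-fold in the same direction in both treatments. Their averaged genotype differences ran from -0.71 to 0.56 in the scanner output and from -0.74 to 0.31 in the table. Over all genes, 5.97% (controls) and 8.14% (challenged) differed 2-fold in the scanner output, and 5.14% and 5.8% in the table. The share of all genes meeting the rule in both treatments was not counted, so the counts of 0 show nothing particular to this stretch.

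Col6a5 and Col6a6 are the other 2 genes of the same cluster. Col6a5 read -7.57, -6.79, -5.80 and -4.23 in the table, with both challenged values above both controls. Challenged minus control was 1.77 for the WT-labelled arrays and 2.56 for the KO-labelled ones, 2.16 or 4.48-fold on average (SE 0.26, limma adjusted p = 0.566, and 0.0586 with the variance trend). The KO-labelled array was higher in each treatment, by 0.78 and 1.57 (averaged 1.17, limma adjusted p = 0.316). The first 30 bases of its probe are shown because it gave the largest challenge difference of any collagen in the table.
Col6a5 probe: catcaagccatttgttcattcgatcagacg
By contrast, Col6a5 in the scanner output was above background on the KO-labelled challenged array alone (-7.13), at least 1.49-fold over the KO-labelled control and at least 1.61-fold over the WT-labelled challenged array. That array was the highest in both sources. Averaged with a second probe that was at background throughout, the table's WT-labelled challenge difference was 0.96, under 2-fold. The averaged scanner genotype difference of 1.91 had the smallest unadjusted p among collagens there (0.000811, limma adjusted p = 0.425) but rests on values at background, and was 0.22 with normexp correction and quantile normalization.

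Col6a6 read -7.83, -9.43, -7.76 and -9.50 in the table and was at background on both KO-labelled arrays. It was at least 1.39-fold lower there among controls and at least 1.21-fold lower among challenged arrays (averaged difference -1.67, limma adjusted p = 0.113). Its other probe, the brighter one in the scanner output, read -8.74, -9.06, -9.02 and -7.89 in the table and was above background on the KO-labelled challenged array alone. The same probe in the scanner output read -7.26, -7.48, -7.71 and -8.10, at background on both challenged arrays. With both probes averaged, the table's genotype differences of Col6a6 were -0.96 among controls and -0.30 among challenged arrays. The classic chains Col6a1 and Col6a3 read 3.71, 3.51, 3.90 and 3.73 (genotype -0.19, limma adjusted p = 0.429) and 2.48, 2.46, 2.44 and 2.68 in the table. In the scanner output Col6a3 read -3.16, -3.49, -3.37 and -3.69, lower on the KO-labelled array in both treatments.

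**Figure D2:**
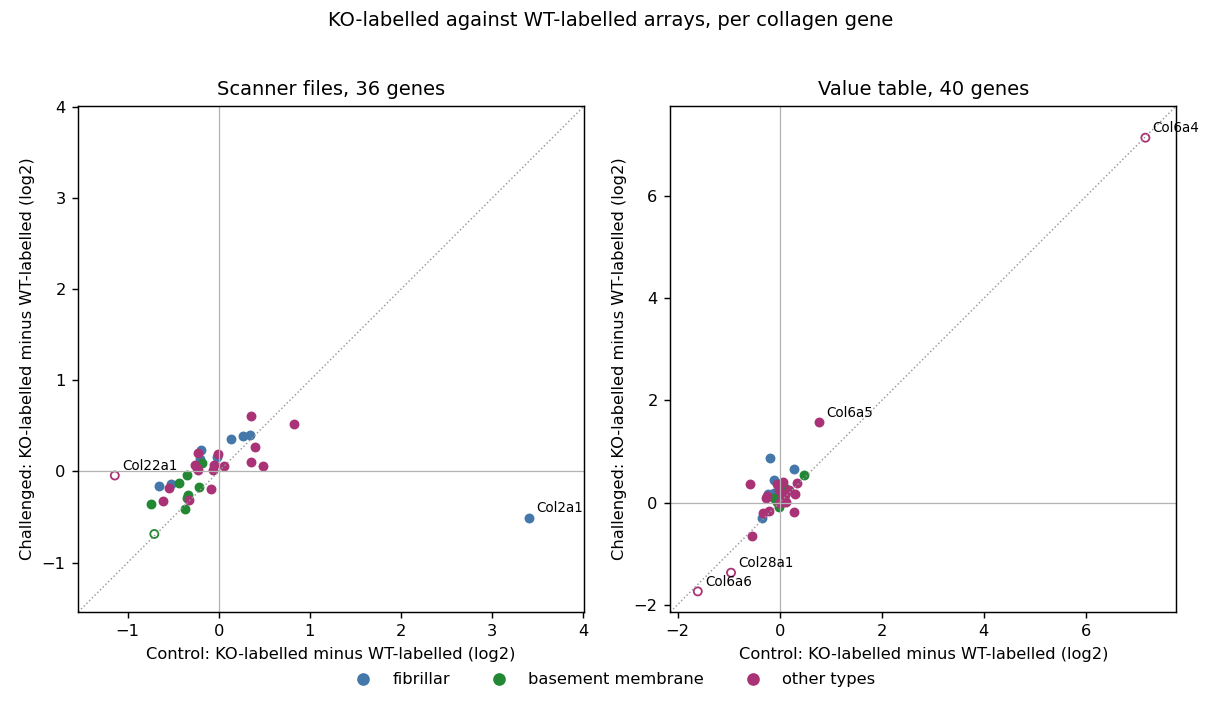
KO-labelled minus WT-labelled log2 level among control arrays (horizontal axis) and among challenged arrays (vertical axis), 1 point per collagen gene, scanner output and value table in separate panels, open points not above background on all 4 arrays. In the table panel Col6a4, an open point whose WT-labelled values were at background, lies far from the rest, while 34 of 36 scanner genes and 36 of 40 table genes lie within 2-fold in both treatments.

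**Figure D3:**
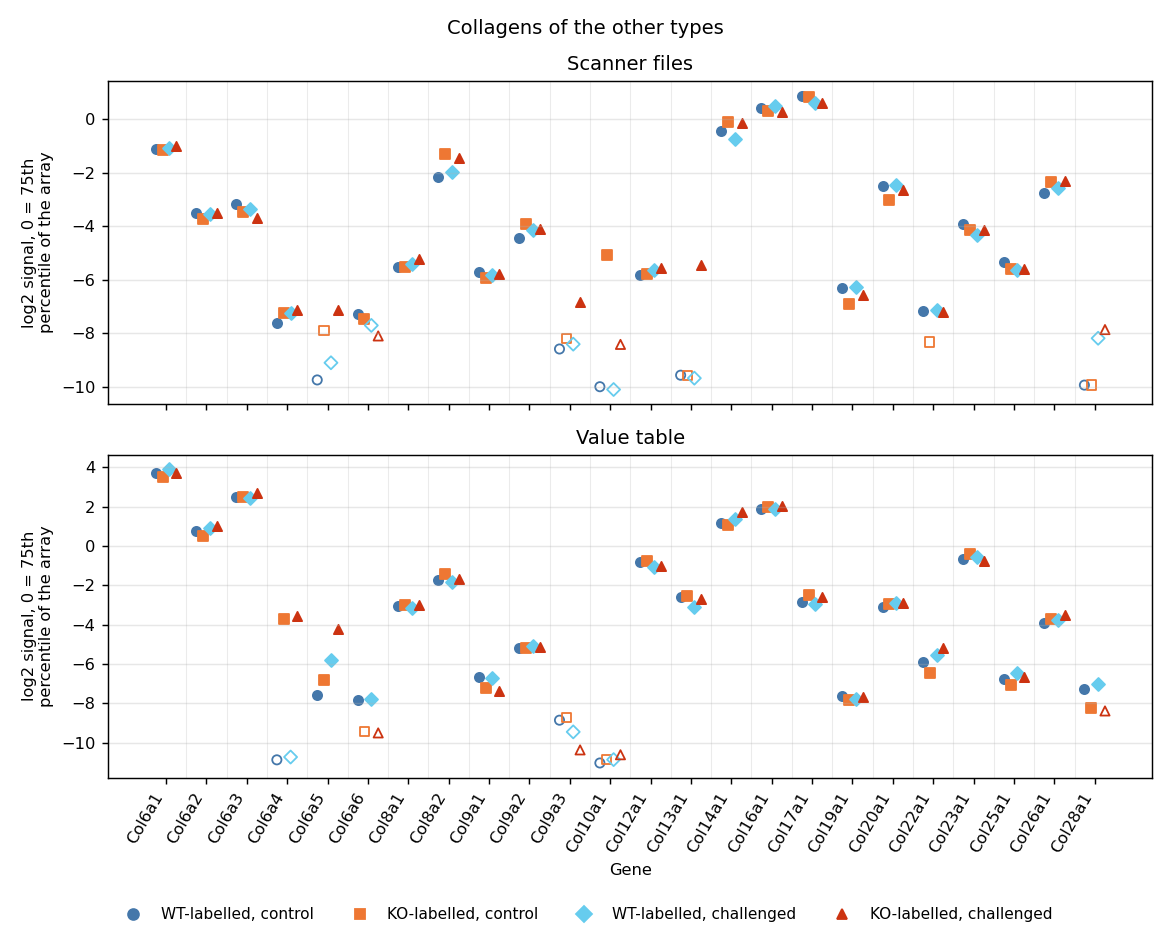
Log2 level relative to the array's 75th percentile (vertical axis) of the other collagen genes (horizontal axis), with 1 symbol for each of the 4 arrays, scanner output above and value table below; open symbols are not above background. Col10a1 and Col13a1 each have 1 array above background in the upper panel, at -5.07 and -5.44, and Col6a4 splits by genotype label in the lower panel.

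Of the transmembrane collagens, Col13a1, which sits at cell contacts and neuromuscular junctions, read -9.56, -9.57, -9.68 and -5.44 in the scanner output. It was above background on the KO-labelled challenged array alone, at least 4.81-fold over the KO-labelled control and at least 5.22-fold over the WT-labelled challenged array. With normexp correction and quantile normalization the KO-labelled pair's challenge difference was 0.74. In the table it was above background on all 4 arrays at -2.61, -2.55, -3.11 and -2.72, with both challenged values below both controls (-0.33, limma adjusted p = 0.585). Col17a1, the hemidesmosome collagen of basal epithelium, was higher on the KO-labelled array in both treatments in the table, at -2.87, -2.52, -2.97 and -2.59 (0.36, limma adjusted p = 0.299). In the scanner output it read 0.87, 0.80, 0.60 and 0.61, with both challenged values lower. Col25a1, found in amyloid plaques, had a challenge difference of 0.39 and a genotype difference of -0.27 in the table (limma adjusted p = 0.566 and 0.369). Another Col25a1 probe above background throughout gave challenge differences of 0.18 (WT-labelled) and -0.25 (KO-labelled) in the table. Its genotype differences there were 0.11 (controls) and -0.32 (challenged). Col23a1 had challenge differences of -0.41 and 0.02 in the scanner output's WT-labelled and KO-labelled pairs, and of 0.09 and -0.38 in the table's.

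Of the fibril-associated collagens, Col9a3, a type IX chain, was above background in the scanner output on the KO-labelled challenged array alone (-6.82). It was at least 1.85-fold over the KO-labelled control there and at least 2.01-fold over the WT-labelled challenged array. With normexp correction and quantile normalization these log2 differences were 0.21 and 0.28. Col9a1, by its brighter probe, was lower on the KO-labelled arrays in the table at -6.66, -7.21, -6.73 and -7.39 (-0.60, SE 0.08, limma adjusted p = 0.23). The scanner output gave -5.70, -5.96, -5.84 and -5.77 for it. Col22a1, a collagen of muscle-tendon junctions, read -5.87, -6.45, -5.55 and -5.18 in the table, with challenge differences of 0.33 and 1.27 (0.80 on average, limma adjusted p = 0.585). In the scanner output it read -7.18, -8.32, -7.15 and -7.19 and was at background on the KO-labelled control array, at least 1.44-fold below the WT-labelled control and at least 1.43-fold below the KO-labelled challenged array. With normexp these log2 differences were -0.15 (genotype) and 0.12 (challenge). In both sources the KO-labelled control array was the lowest for Col22a1.

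Col14a1, a regulator of fibril growth, read -0.46, -0.11, -0.76 and -0.15 in the scanner output (genotype 0.48, limma adjusted p = 0.46). In the table it read 1.14, 1.08, 1.37 and 1.73 (challenge 0.44, limma adjusted p = 0.579). Col12a1, its relative, had a challenge difference of -0.26 in the table (limma adjusted p = 0.567), and Col19a1 a genotype difference of -0.46 in the scanner output (limma adjusted p = 0.468). Among the short-chain genes, Col8a2, of the hexagonal network of the cornea and vessel wall, read -2.16, -1.33, -1.98 and -1.46 in the scanner output. Both KO-labelled values lay above both WT-labelled values (0.67, SE 0.15, limma adjusted p = 0.438), and the table's genotype difference had the same sign (0.23, limma adjusted p = 0.409). A dimmer Col8a2 probe, also above background throughout, did not show this order. Its KO-labelled minus WT-labelled differences were 0.09 (controls) and -0.06 (challenged) in the scanner output, and 0.07 and -0.05 in the table. Col28a1, a small collagen of peripheral nerve, read -7.27, -8.22, -7.01 and -8.39 in the table. It was lower on the KO-labelled array in both treatments (-1.16, limma adjusted p = 0.23) and at background on the KO-labelled challenged array, at least 2.04-fold below the WT-labelled challenged array.

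The collagens not yet given differed little between arrays. Col5a1, the main type V chain, read -3.38, -3.40, -3.73 and -3.58 in the scanner output and 0.22, 0.12, 0.28 and 0.47 in the table, with challenge differences of opposite sign (-0.27 and 0.21). Col6a2, a classic type VI chain, read 0.74, 0.48, 0.90 and 0.99 in the table, with both challenged values higher (0.33). It read -3.52, -3.75, -3.54 and -3.52 in the scanner output (0.10). Col16a1, a fibril-associated chain, read 0.39, 0.31, 0.47 and 0.27 in the scanner output and 1.87, 1.97, 1.87 and 2.03 in the table, with challenge differences of 0.02 and 0.03. Col26a1 was higher on the KO-labelled array in both treatments and both sources, by 0.33 and 0.22 on average, at -2.76, -2.36, -2.57 and -2.31 in the scanner output. Col8a1, a short-chain gene of vessel wall and cornea, had challenge differences of 0.21 in the scanner output and -0.04 in the table. Col9a2, whose scanner levels are given above, had 0.05 and 0.07, and Col20a1 had 0.21 and 0.12. None of these passed limma.

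The challenge difference could also be set against itself in the 2 genotype pairs. Of the collagens above background on all 4 arrays, KO-labelled minus WT-labelled response was above 0 for 27 of 34 in the scanner output (79.4%), where it was for 45.4% of 23700 genes. In the table it was above 0 for 31 of 37 (83.8%), against 52.1% of 23839 genes. The medians were 0.18 in the scanner output (all genes -0.03) and 0.13 in the table (all genes 0.01). By kind, the counts were 8 of 9 fibrillar, 7 of 8 basement membrane and 12 of 17 other genes in the scanner output. In the table they were 9 of 9, 8 of 9 and 14 of 19, and the fibrillar genes ran from 0.0458 to 1.06 with a median of 0.30. With quantile normalization the table's counts were 26 of 37 collagens and 8 of 9 fibrillar genes, and 50.5% of all genes. Each such value uses all 4 arrays, and with 1 array per group none of them could be tested. What belongs to 1 array and what belongs to its group cannot be told apart. The 2 responses had opposite signs for 9 of 34 collagens in the scanner output and 12 of 37 in the table, and the share of all genes was not counted.

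**Figure D4:**
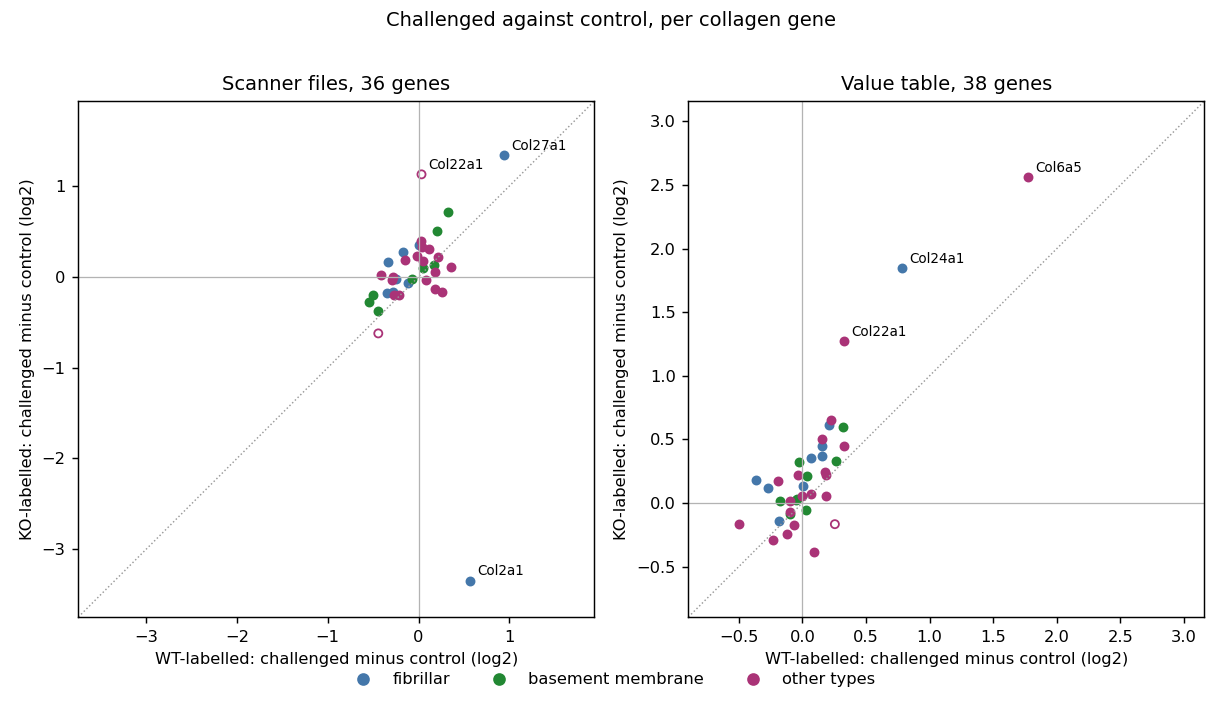
Challenged minus control log2 level in the WT-labelled pair (horizontal axis) and the KO-labelled pair (vertical axis), 1 point per collagen gene, scanner output and value table in separate panels, open points not above background on all 4 arrays. Of the genes drawn, 33 of 36 in the scanner panel and 35 of 38 in the table panel lie within 2-fold in both pairs, and Col6a5 is the table's outermost point at 1.77 and 2.56.

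The same probe names gave different collagen levels in the 2 sources. For this comparison each gene stood by 1 probe in both sources, its brightest over all 8 columns. Of 43 collagens above background in at least 1 column, 25 were at least 2-fold lower in the scanner output than in the table (15.6% of all genes were) and 11 at least 2-fold higher (29% of all genes). Col6a4 and Col6a6 were among the higher ones, with scanner minus table differences of 1.54 and 1.04. By the probes that stood for them in the table these differences were -2.20 and -1.01. The median scanner minus table difference was -1.70 for collagens and 0.42 for all genes. Fibrillar and basement membrane genes had medians of -3.27 and -3.10, and the other types -0.66. Restricted to the 32 collagens above background in all 8 columns, 19 were lower (59.4%, against 14.2% of 22466 genes) and 6 higher (18.8%, against 24%), with a median of -2.03 (all genes 0.37).

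Among these 32, the widest gaps were Col4a1 at -7.05 (132-fold lower in the scanner output), Col4a2 at -6.85, Col6a3 at -5.95, Col5a2 at -4.83 and Col6a1 at -4.80. On the other side of the 32 stood Col17a1 at 3.45 and Col7a1 at 2.07, followed by Col26a1 at 1.22, Col19a1 at 1.21 and Col25a1 at 1.20. Col4a3 (-7.81) and Col13a1 (-5.81) on the lower side, and Col2a1 (2.57) and Col10a1 (2.44) on the higher, were at background in some columns. Of the first 5 named on the higher side, the last 3 lie near the 0.84 by which negative controls themselves were higher in the scanner output. The first 30 of 60 bases of the probes at both ends are shown, since the gap belongs to these probe names.
Col4a1 probe, chr8:11199009-11199068, minus strand: ttttcgtctctggagaaactgtactatcct
Col17a1 probe, chr19:47720894-47720953, minus strand: ggcacagttggtttttatttaagcactttc
The same probe was the brightest in both sources for 41 of the 44 genes. Of 10 genes with 2 or more probes above background in all 8 columns, the probes gave gaps of different sign for 3, Col15a1, Col16a1 and Col8a2.

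Markers of cell types differed between the sources too. Summed over each list in units of the 75th percentile, fibroblast markers, all 12 of them above background, ran from 7.42 to 9.20 in the scanner output and from 53.5 to 63.7 in the table. Endothelial markers ran from 4.43 to 5.15 against 129.6 to 145.8, and smooth muscle markers from 1.59 to 2.22 against 47.9 to 64.6. Alveolar epithelial markers ran from 79.0 to 88.6 against 324 to 347. Basal and squamous epithelial markers had the other order, from 162.5 to 196.4 in the scanner output against 2.96 to 3.67 in the table. The sum of the mesothelial markers was also higher in the scanner output, from 145.2 to 163.6 against 15.6 to 16.5. Their median log2 levels overlapped between the sources, at -0.50 to -0.10 against -0.64 to -0.40. The cartilage markers given above had higher sums in the scanner output too. The collagens lower in the scanner output include those of vessel and fibroblast matrix and the 2 highest among those above background in all 8 columns, Col17a1 and Col7a1, are those of basal epithelium, but the part of cell makeup in these gaps was not tested.

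**Figure D5:**
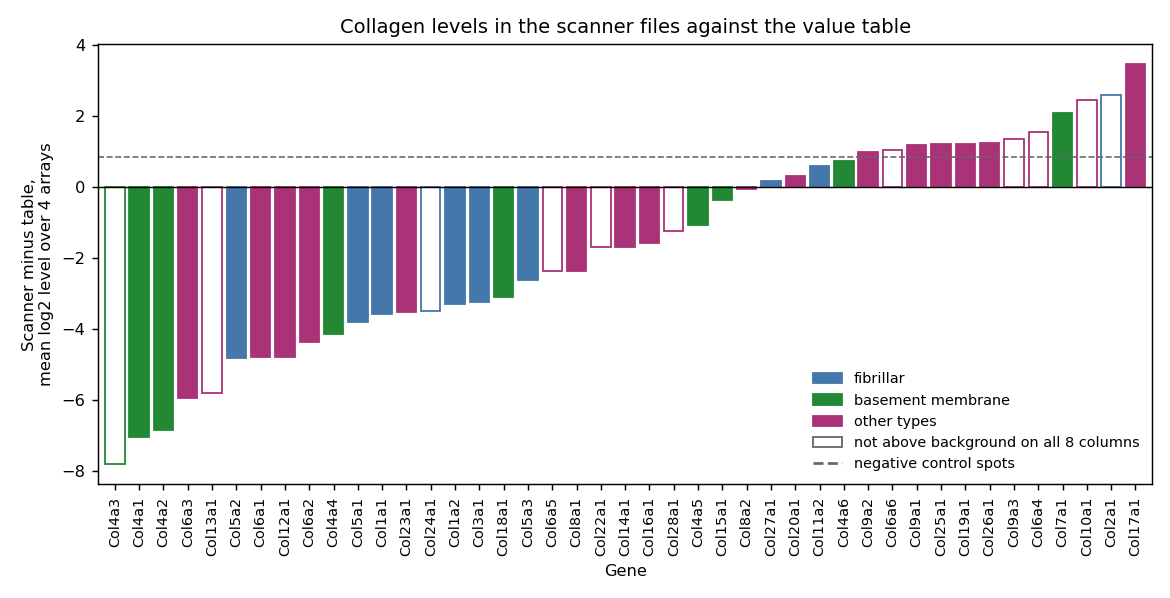
Scanner minus table mean log2 level (vertical axis) for each collagen gene (horizontal axis), 1 bar per gene, open bars not above background in all 8 columns, dashed line the same difference for negative control spots (0.84). The filled bars run from -7.05 for Col4a1 to 3.45 for Col17a1, and the open bar of Col4a3 reaches -7.81.

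Genes that work with collagens were followed by 6 lists, and no member of any list passed limma for challenge or genotype in either source. Chain modification enzymes, which hydroxylate and glycosylate the nascent chains, were higher with challenge for 10 of 17 in the scanner output (median 0.04) and 5 of 17 in the table (median -0.06). P4ha1, a prolyl hydroxylase subunit, differed by 0.49 in the scanner output and by -0.25 in the table. Plod1, a lysyl hydroxylase, was at 0.41 and P3h3 and Fkbp10, both helpers of helix folding, at -0.32 and -0.27 in the scanner output. In the table the outermost were Fkbp10 (0.16), P4ha3 (0.12) and Colgalt2 (-0.18).

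Processing and cross-linking enzymes were higher for 5 of 12 in the scanner output (median -0.06) and 6 of 12 in the table (median -0.01). Lox, the lysyl oxidase that starts cross-links, read -2.11, -2.29, -1.55 and -1.69 in the table, with both challenged values higher (0.58). In the scanner output it read -4.77, -5.40, -4.73 and -4.60 (0.42). Loxl4, another oxidase of that family, differed by 0.40 in the scanner output and 0.42 in the table. Lowest of those above background on all 4 arrays were Tll1, a procollagen proteinase, at -0.62 and the proteinase enhancer Pcolce2 at -0.45 in the scanner output, and Loxl1 at -0.26 and Pcolce2 at -0.22 in the table. Tll2, a relative of Tll1, was above background on 1 scanner array only and read -7.42, -7.13, -9.62 and -9.17 there, both challenged values being lower. Lox and Loxl4 thus had the same sign in both sources, and so did Pcolce2.

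Collagen receptors were higher for 4 of 10 in each source (medians -0.12 and -0.09). Itga2, the alpha-2 integrin, was at 0.61 in the scanner output and -0.25 in the table, and Mrc2, an uptake receptor, at -1.01 in the scanner output. Itgb1 was at 0.11 and Itga1 at -0.49 there. Gp6, the platelet receptor, was above background on 1 scanner array only and read -7.97, -7.73, -7.51 and -6.15. In the table Lair1 was at 0.26, Itga10 at 0.06 and Gp6 at -0.30. Proteoglycans and partners of fibrils were higher for 3 of 12 in the scanner output (median -0.06) and 7 of 13 in the table (median 0.02). In the scanner output Fn1, fibronectin, differed by -0.41 between WT-labelled arrays and by 0.81 between KO-labelled ones, and Thbs1 by -0.60 and 0.99. The small proteoglycans Lum and Dcn were at -0.60 and -0.37 there. In the table Fn1 was at 0.49, Tnc, tenascin C, was at 0.45, Ogn at -0.16 and Prelp at -0.15.

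Basement membrane partners were higher for 5 of 15 in the scanner output (median -0.13) and 9 of 15 in the table (median 0.01). Lama1, a laminin chain, had the lowest average in each source, at -0.69 and -0.43, but the table's value joins -1.17 (WT-labelled) with 0.30 (KO-labelled). Pxdn, the peroxidase that cross-links type IV collagen, was at -0.99 and 0.08 in the same order in the scanner output and averaged -0.15 in the table. Among the higher ones were Lamb1 (0.08) in the scanner output and Hspg2 (0.29) and Lama2 (0.12) in the table. Pro-fibrotic genes were higher for 5 of 12 in the scanner output (median -0.03) and 6 of 12 in the table (median -0.04). Timp1, an inhibitor of collagen-cleaving proteinases, read -1.35, -1.05, -0.32 and 1.09 in the scanner output and 0.73, 0.40, 1.71 and 2.29 in the table. Both challenged values lay above both controls in each source, by 1.58 and 1.44 on average. Il13, a type 2 cytokine, read -9.80, -9.83, -5.49 and -3.03 in the scanner output, above background on 2 of the 4 arrays, and both challenged values were far above the controls. In the table it was higher by 1.87 with challenge. Areg, an epithelial growth factor, differed by -0.20 in the scanner output's WT-labelled pair and by 2.69 in its KO-labelled pair, and Ctgf, a matrix-inducing factor, by -0.84 on average. Tgfb2 was at -0.22 and -0.26, and Cthrc1 at -0.20 in the table. The medians of all genes were -0.05 in the scanner output and 0.01 in the table. The share of all genes that were higher with challenge was not counted beside these lists.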

How the data were processed

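Lung RNA was read on 4 Agilent one-colour arrays, 1 per group. The deposited scanner intensity is Feature Extraction's processed signal (Agilent Feature Extraction 11.5.1.1, per the submitters' processing notes), detrended across the array and not normalized between arrays, per the file headers. The authors' value table gives a linear signal for the same spots, and how it was normalized is not stated in the labels or headers. Probe coordinates are on mm9, per the file headers.

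Each column was divided by its 75th percentile over non-control spots and log2 transformed. Spots flagged as outliers and control spots were dropped, which left out 19 probes of the scanner output, spots of a probe were averaged, and the brightest probe of a gene in each source stood for it. Probes were named by accession through RefSeq (28266), from the file (8721), as collagens by the rule (66), by symbol (2202) or by synonym (174). Challenge and genotype were fitted together on the 4 arrays of a source with limma 3.58.1 (R 4.3.3), without an interaction, over genes above background on at least 1 array. P-values were adjusted by Benjamini-Hochberg with a threshold of 0.05. Single pairs were compared by a 2-fold rule over genes above background on at least 1 array of the pair. Python 3.11.15, numpy 2.4.6, pandas 2.3.3 and matplotlib 3.10.9 were used for the rest. The fit was also run on simulated data, and the outcome is not given here and is not used for any result.

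The text names Col1a1, Col1a2, Col3a1, Col4a1 and Col4a2, and, per source, the 4 highest and 4 lowest collagens by each averaged effect and the 4 largest opposite challenge responses. It also names the 5 highest and 5 lowest by source, those at background on 1 side of a pair, the type IV neighbours, and the 2 highest and 2 lowest of each pathway list by challenge among genes above background on all 4 arrays, as for the averaged collagen effects. The source ranking used collagens above background in all 8 columns. Other collagens were named after their values were seen. One gene of the pathway lists and one probe sequence are not reported here. The members and lists were chosen with earlier results of these data known. Alternatives were quantile and median scaling, normexp with an offset of 50 and quantile normalization, stricter and absent filters, the mean over a gene's probes, 1.5-fold and 3-fold rules, and limma's variance trend. Precision is limited by the number of arrays, 1 per group, whose pooled RNA hides the spread between animals.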

Additional observations from a re-analysis of the deposited data

How the results depend on the processing

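None of the 2-fold single-collagen differences changed sign in the alternatives run on it, but differences of responses did: those above 0 in the table went from 31 to 26 of 37 under quantile normalization. Of the counts recomputed for collagens and for all genes, 89 stayed within 1.5 times the main value and 31 did not, and of the 2-fold differences of single collagens 136 stayed and 50 moved, a move being one larger than the scanner software's spot error, or than 0.2 (log2) in the table. All 20 such scanner values run with normexp moved. The genes called by limma went from 0 in the scanner output's challenge effect to 1 with a variance trend and to 1 with normexp and quantile normalization. In the table they went from 0 to 118 for challenge and from 0 to 1048 for genotype with a variance trend, and to 271 for genotype over genes above background on all 4 arrays. The collagens called in the table went from 0 to 2 for genotype with the trend.

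With the 1.5-fold rule in place of 2-fold, the scanner output's collagen counts went from 0 to 2 (challenge, WT-labelled), 3 to 8 (genotype, controls) and 3 to 5 (genotype, challenged). The table's went from 1 to 2, from 4 to 7 (challenge, KO-labelled), from 2 to 4 and from 5 to 8 in turn. With the 3-fold rule the KO-labelled challenge count was 3 in the scanner output and 2 in the table, and the table's challenged genotype count was 2. These changes follow from the size of the fold asked for. Over genes above background on all 4 arrays, which tests fewer genes, the scanner output gave 2 (challenge, KO-labelled), 1 (genotype, controls) and 0 (genotype, challenged), and the table gave 0 (genotype, controls) and 1 (genotype, challenged). With no filter the WT-labelled challenge counts were 1 in the scanner output and 2 in the table. Normexp with quantile normalization gave 2 (challenge, KO-labelled) and 0 (genotype, challenged) in the scanner output. The mean over probes gave 0 (challenge, WT-labelled) and 1 (genotype, controls) in the table. Arrays at background set to the detection floor, chosen after seeing the data, gave 1 (genotype, controls) and 3 (genotype, challenged) in the table. Collagens higher in the scanner output went from 11 to 5 with quantile normalization of all 8 columns and to 6 over genes above background in all 8, also chosen after seeing the data. Where no construction is named, the cause was not tested. No paired analysis was possible because the labels carry no replicate numbers and each group is 1 array, so no array could be left out either. Values near background limit the collagens seen on some arrays only.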
